A study of Sus scrofa with 24 samples.

Results

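The large heat shock proteins, their J-domain and BAG partners and the chaperonins were followed through pig muscle development. Members were taken from the array annotation by their symbols alone: HSPA, HSPD, HSPE, HSPH, HSP90 and DNAJ genes, the CCT subunits with TCP1, and the BAG genes. The rule found 47 of the 6765 genes that carried a single symbol on the array, through 81 probe sets, and 25 of the 47 genes had 1 probe set. Each of the others is represented by its brightest probe set (by mean over the arrays).

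RNA came from the longissimus dorsi, the long muscle of the back, on 24 Affymetrix porcine arrays. The breeds were Pietrain (Pi) and German landrace (DL), and each gave fetal muscle of pregnancy days 35, 63 and 91 (dpc, days post conception) and adult muscle. Each of these 8 combinations of breed and stage was measured in 3 RNA pools, which the titles letter a to c. No treatment or engineered allele is named for any group. The labels leave out how many animals a pool holds and their sex, the 35 dpc titles alone carry an unexplained K, and a free-text field calls the fetal pools peripubertal against the stage given elsewhere. Titles and characteristics set the groups here. The spread behind every test is that between pools.

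Chaperones of the HSP70 class bind unfolded stretches of other proteins and close on them as ATP is hydrolysed. J-domain proteins (DNAJ genes) bring the clients and stimulate that hydrolysis, while BAG proteins and HSP110 relatives drive nucleotide exchange and so release the client. HSP90 acts on nearly folded clients such as kinases and steroid receptors, and the chaperonins enclose their clients in a barrel: CCT in the cytosol, where actin and tubulin are its main clients, and HSPD1 with its lid HSPE1 in mitochondria. In muscle this machinery folds myosin and actin and clears damaged proteins from the Z-disc.

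All values are log2 intensities as deposited, and no level of a probe set was set against that of another. Of the 47 members, 45 lay above the array's background ceiling on all 24 arrays. HSPA12A did so on 23 and DNAJC9 on 19. By class, 7 members belonged to the cytosolic HSP70 and HSP110 group, 2 to cytosolic HSP90, 6 to the endoplasmic reticulum (ER), 6 to mitochondria and 6 to CCT. The other type A and B J proteins numbered 8, the other DNAJC proteins 8 and the BAG proteins 4. The median standard deviation of the members between pools ran between 0.10 in DL at 35 dpc and 0.23 in adult Pi, and the arrays of adults scattered most about their group means for all probe sets (residual SD up to 0.696, against 0.235 to 0.269 in DL at 35 dpc).

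Markers of several cell types also moved with stage. The 7 measured of 8 skeletal muscle markers had a mean level of 11.00 to 11.71 at 35 dpc, 13.76 to 14.02 at 63 dpc, 14.78 to 14.95 at 91 dpc and 15.26 to 15.40 in adults. For 8 measured of 11 neuron and glia markers, the range was 10.69 to 11.08 at 35 dpc and 3.02 to 3.46 at 63 dpc, where RTN1, SNAP25 and SYT1 lay at background on every array. The 4 measured of 5 markers of dividing cells had a mean level of 9.34 to 9.74 at 35 dpc, 8.57 to 8.88 at 63 dpc, 7.18 to 8.02 at 91 dpc and 2.25 to 2.86 in adults, where MCM2 and TYMS were at background. Not all muscle markers rose between 91 dpc and adulthood. TNNC2 averaged 15.58 in adult DL and 15.57 in adult Pi, below its 15.85 in either breed at 91 dpc. MYL1 was also lower in both breeds, and DES in Pi only (13.67, after 14.06). MYH2, MYH7, TNNT3 and CKM rose in both breeds. MYH2 moved furthest, from 13.40 to 15.46 in DL and from 13.37 to 15.68 in Pi. The part of the markers of all these cell types in the results below was not tested. In such bulk tissue, fewer cells of a type and less RNA per cell cannot be told apart.

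Between 35 and 63 dpc most of the family fell. At 63 dpc against 35 dpc, 29 of the 47 members were lower and 7 higher, with limma's adjusted p below 0.05, and 11 did not pass. Over all probe sets 22% were lower and 22.3% higher, and over genes by their brightest probe set 24.1% and 30.5%. The median change of the members was -0.79, against 0.00 for all probe sets. The arrays of both stages did not overlap for 31 of the 47 members, against 39.3% of genes by their brightest probe set. When arrays were scaled to the spiked hybridisation controls in place of the deposited scale, the median of all probe sets shifted to -0.78 and the members split into 38 lower and 3 higher. The rises of BAG1, DNAJA4, DNAJB2 and DNAJC14 did not pass on that scale.

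**Figure D1:**
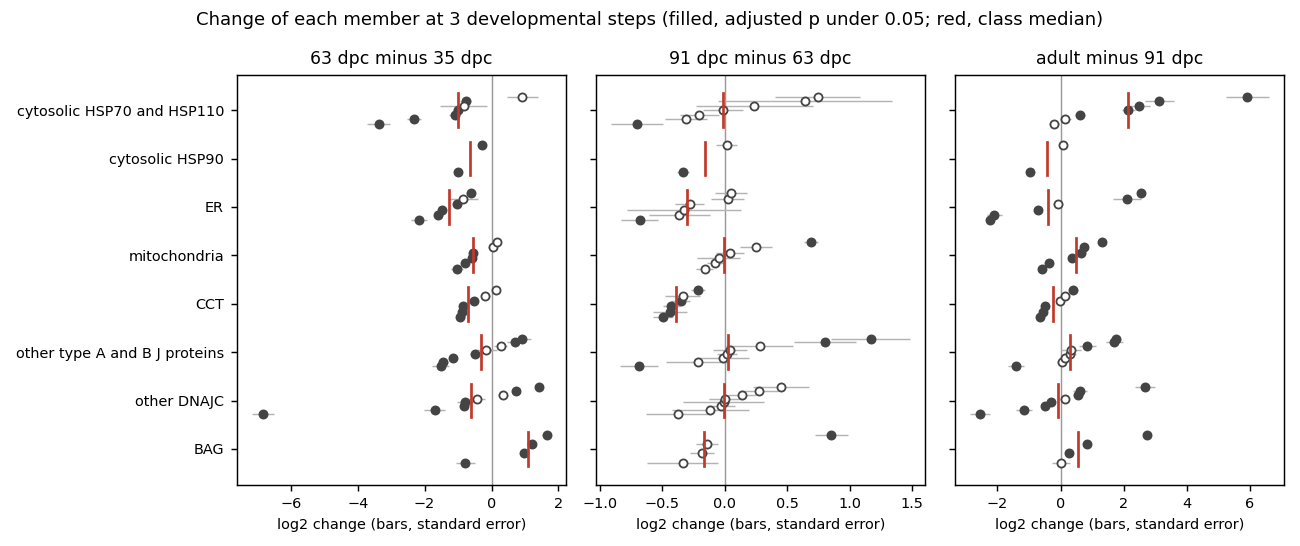
Log2 change of each member (points, filled where called, with standard errors) by class, with the median of the class in red, for 63 against 35 dpc, 91 against 63 dpc and adults against 91 dpc, averaged over both breeds. In the first step only the BAG class has a median above 0, and in the adult step the cytosolic HSP70 and HSP110 class has its median at 2.14.

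Among the cytosolic HSP70 and HSP110 genes, 5 of 7 fell and none rose, with a median of -0.996. HSPA8, the constitutive HSC70, lay between 13.13 and 13.81 with a median of 13.49 at 63 dpc, against 14.43, 14.61 and 14.73 (lowest, median and highest of 6) at 35 dpc. All 63 dpc pools were below all 35 dpc pools, and HSPA8 fell by 1.10 ± 0.17 (SE, 6 pools a stage; adjusted p = 2.69e-05). HSPH1, the HSP110 exchange factor, had 8.31, 9.26 and 9.82 at 63 dpc, against 11.21, 11.53 and 11.85 at 35 dpc. Its stages stood apart by more than the spread within either, a decrease of 5.02-fold (log2 change -2.33 ± 0.21, adjusted p = 3.36e-08). HSPA12A, an atypical relative of the HSP70 proteins, had 2.25, 3.65 and 3.98 at 63 dpc, against 5.98, 6.88 and 7.23 at 35 dpc. It fell 10.4-fold (-3.37 ± 0.34, adjusted p = 1.83e-07), and its lowest 63 dpc pool was at background. HSPA4, a further HSP110 relative, and HSPA14, which works at the ribosome, fell by 0.996 and 0.77. HSPA2 and HSPA6 did not pass, at 0.92 (adjusted p = 0.131) and -0.84 (adjusted p = 0.395).

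Both cytosolic HSP90 genes fell. HSP90AA1, the inducible form, had 13.12, 13.25 and 13.42 at 63 dpc, against 14.06, 14.32 and 14.52 at 35 dpc. The stages did not overlap, and the change was -1.02 ± 0.09 (adjusted p = 1.47e-08). HSP90AB1, the constitutive form, had 13.96, 14.05 and 14.08 at 63 dpc, against 14.24, 14.32 and 14.35 at 35 dpc, a change of -0.28 ± 0.05 (adjusted p = 9.34e-05). Its pools were tight enough for this small shift to exceed their spread.

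In the ER class 5 of 6 members fell, with a median of -1.26. HSPA5 (BiP), the HSP70 of the ER lumen, had 12.18, 12.37 and 12.45 at 63 dpc, against 13.65, 13.81 and 14.10 at 35 dpc, a change of -1.49 ± 0.12 (adjusted p = 5.35e-09). HSP90B1 (GRP94), its HSP90 counterpart, had 11.22, 11.31 and 11.62 at 63 dpc, against 12.70, 13.02 and 13.19 at 35 dpc. For both genes the lowest 35 dpc pool was above the highest 63 dpc pool, and HSP90B1 changed by -1.60 ± 0.13 (adjusted p = 1.47e-08). HSPA13, a small ER-associated HSP70, had 8.63, 9.02 and 9.62 at 63 dpc, against 10.99, 11.20 and 11.54 at 35 dpc, a change of -2.17 ± 0.24 (adjusted p = 6.67e-07). The BiP partners DNAJB9 (ERdj4) and DNAJB11 (ERdj3) fell by 1.03 and 0.63, while DNAJC3 (p58IPK) did not pass at -0.85 (adjusted p = 0.151).

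In the mitochondrial class 4 of 6 members fell. HSPD1, the chaperonin, had 12.25, 12.40 and 12.61 at 63 dpc, against 13.02, 13.20 and 13.49 at 35 dpc, and fell by 0.81 ± 0.06 (adjusted p = 7.61e-09). HSPE1, its lid, had 13.36, 13.67 and 13.79 at 63 dpc, against 14.05, 14.19 and 14.35 at 35 dpc, and fell by 0.56 ± 0.07 (adjusted p = 1.23e-06). In RefSeq's pig annotation these genes are direct neighbours with 0 genes between them, and both had separate stages here. HSPA9 (mortalin), the HSP70 of the matrix, had 10.63, 10.97 and 11.11 at 63 dpc, against 11.48, 11.52 and 11.59 at 35 dpc, and fell by 0.57 ± 0.05 (adjusted p = 8.34e-08). DNAJC19, a J protein of the inner membrane import motor, fell by 1.03. DNAJA3 (0.03) and DNAJC11 (0.16) did not pass.

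Of the 6 CCT genes, CCT2, CCT4, CCT6A and CCT8 fell, by 0.89, 0.53, 0.93 and 0.85. TCP1, the alpha subunit, had 11.98, 12.31 and 12.45 at 63 dpc, against 11.91, 12.46 and 12.69 at 35 dpc, so its stages overlapped (change -0.19, adjusted p = 0.319). CCT7, the eta subunit, had 12.27 to 12.57 at 63 dpc and 11.83 to 12.57 at 35 dpc (change 0.14, adjusted p = 0.0639). So 4 subunits of the ring were called lower and 2 were not called.

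The remaining J proteins split. The largest fall of the family was that of DNAJC6, auxilin, which uncoats clathrin vesicles and is best known from neurons. DNAJC6 had 2.38, 2.58 and 2.71 at 63 dpc, against 9.15, 9.43 and 9.63 at 35 dpc, with no overlap and a gap many times the spread of either stage. It fell 115-fold (-6.85 ± 0.33, adjusted p = 5.63e-12), beside the drop of the neuron and glia markers given above. Of those 8 markers 7 were lower at 63 than 35 dpc in both breeds, but MBP, a myelin protein, averaged 3.58 in Pi and 5.81 in DL at 63 dpc, against 3.71 in Pi and 2.76 in DL at 35 dpc. The part of those cells in it was not tested. DNAJA1 (-1.45), DNAJB14 (-1.52), DNAJB6 (-1.15), DNAJC9 (-1.70), DNAJC8 (-0.83), DNAJC24 (-0.80) and DNAJA2 (-0.50) fell as well. Other probe sets of a few of these disagreed: 1 of DNAJA1 rose by 1.92, and 2 of the 3 others of DNAJB6 rose by 1.32 and 1.04. With the mean of all probe sets of a gene, neither gene passed. DNAJB1, the main stress-inducible J protein of the cytosol, had 7.49 to 9.15 at 63 dpc and 7.30 to 8.62 at 35 dpc and did not pass (0.27, adjusted p = 0.347). DNAJC5, the cysteine string protein of secretory vesicles, had 7.29, 7.73 and 7.92 at 63 dpc, against 5.92, 6.16 and 6.60 at 35 dpc, and rose by 1.42 ± 0.13 (adjusted p = 5.39e-08). DNAJB2 (0.92), DNAJA4 (0.71) and DNAJC14 (0.72) were the other J proteins that rose.

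The BAG class went the other way, with 3 of 4 members higher. BAG3, which works with HSPA8 to clear damaged filamin at the muscle Z-disc, had 9.28, 9.43 and 9.59 at 63 dpc, against 7.32, 7.81 and 8.14 at 35 dpc. All its 63 dpc pools were above all 35 dpc pools, and it rose by 1.65 ± 0.13 (adjusted p = 8.06e-09). BAG6, which guards tail-anchored proteins before membrane insertion, had 10.60, 10.89 and 11.08 at 63 dpc, against 9.52, 9.66 and 9.74 at 35 dpc, and rose by 1.22 ± 0.10 (adjusted p = 5.72e-09). BAG1 rose by 0.97. BAG5 was lower by 0.79 ± 0.28 (adjusted p = 0.0297), with overlapping stages. The call of BAG5 was lost without any of 6 single arrays (pool a or c of Pi at 35 dpc, pool c of Pi at 63 dpc, pool a of DL at 35 dpc, pool a or b of DL at 63 dpc). That of DNAJA4 was lost without any of 8.

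**Figure D2:**
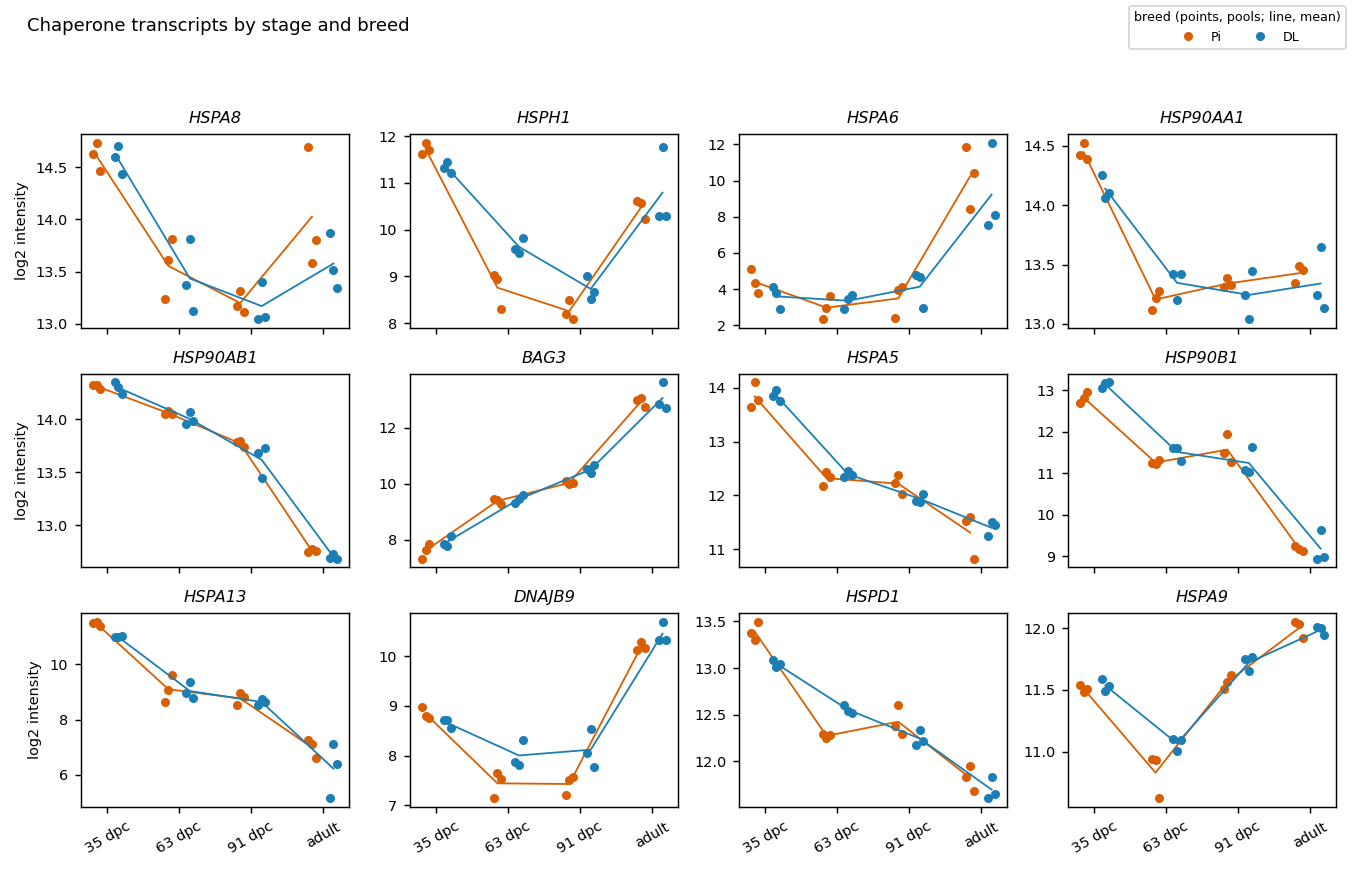
Log2 intensity of selected members in every pool (points; Pi left of DL) at 35, 63 and 91 dpc and in adults, with the group means joined by lines. BAG3 is highest in adults, HSP90B1 and HSPA5 are lowest there, and HSPH1 is low at 63 and 91 dpc.

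From 63 to 91 dpc few members moved. At 91 dpc against 63 dpc, 4 were higher and 9 lower, and 34 did not pass. Of all probe sets, 8.88% were higher and 9.4% lower, and of genes by their brightest probe set 12.9% and 13.7%. The median change was -0.05, against 0.00 over all probe sets, and 6 of 47 members had stages that did not overlap, against 15% of genes. With the scaling to hybridisation controls the split was 3 higher and 13 lower, at a shift of -0.16 in the median of all probe sets.

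CCT held 5 of the 9 members that fell. CCT2, the beta subunit, had 11.54, 11.73 and 11.88 at 91 dpc, against 11.99, 12.21 and 12.51 at 63 dpc, so the stages were separate, and it fell by 0.49 (adjusted p = 0.000184). CCT4 (-0.35), CCT6A (-0.44), CCT7 (-0.21) and CCT8 (-0.43) were lower too. TCP1 had a change of similar size that did not pass (-0.34, adjusted p = 0.108). HSPH1 had 8.08, 8.50 and 9.01 at 91 dpc, against 8.31, 9.26 and 9.82 at 63 dpc, with overlap (-0.70 ± 0.21, adjusted p = 0.023). DNAJA1, a cytosolic partner of HSPA8, was lower by 0.69 (adjusted p = 0.003) and DNAJB11 by 0.68 (adjusted p = 0.00226). HSP90AB1 had 13.44, 13.73 and 13.80 at 91 dpc, against 13.96, 14.05 and 14.08 at 63 dpc, and fell by 0.34 ± 0.05 (adjusted p = 4.87e-05).

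HSPA9 turned round at this step, with 11.51, 11.63 and 11.76 at 91 dpc, against 10.63, 10.97 and 11.11 at 63 dpc. All its 91 dpc pools were the higher ones, and it rose by 0.69 ± 0.05 (adjusted p = 5.26e-08). With the mean of all probe sets of a gene HSPA9 did not pass at this step, nor did DNAJA1 and DNAJB14. BAG3 had 9.98, 10.22 and 10.65 at 91 dpc, against 9.28, 9.43 and 9.59 at 63 dpc, and rose by 0.85 ± 0.13 (adjusted p = 0.00013). DNAJB4, a J protein of heart and muscle, had 10.53, 10.84 and 11.60 at 91 dpc, against 8.96, 9.78 and 10.58 at 63 dpc. Its stages overlapped slightly, and 1.17 ± 0.32 (adjusted p = 0.0137) was the largest rise among the members. DNAJB14, anchored in the ER membrane but counted here with the other type A and B J proteins, rose by 0.80 (adjusted p = 0.0287). HSPA8, HSP90AA1, HSPA5, HSP90B1, HSPD1, HSPE1, TCP1 and DNAJB1 did not pass, with changes between -0.34 and 0.02. However, 4 further probe sets of 3 members without a call at this step were called themselves (DNAJB6, HSP90AA1 and HSPA13). Leaving out 1 array ended the calls of CCT6A (4 of 12 arrays), DNAJB14 (5) and HSPH1 (5).

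Between 91 dpc and adulthood the family moved in both directions. In adults against 91 dpc, 21 of 47 members were higher and 14 lower, and 12 did not pass. Of all probe sets 30.8% were higher and 26.6% lower, and of genes by their brightest probe set 35.4% and 31.5%, so these shares were of the order of the background. The median change of the members was 0.16, against 0.06 for all probe sets, and 21 of 47 members had stages that did not overlap, against 43.1% of genes. With the scaling to hybridisation controls 13 were higher and 15 lower, at a shift of -0.19 in the median of all probe sets, and the rises of HSPA8, HSPA9, BAG6, CCT6A, DNAJA4, DNAJC17, DNAJC19 and DNAJC24 did not pass.

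RNA quality probe sets shifted at the same step. The GAPDH control's 3' level minus its 5' level averaged -0.59 in adult Pi and 1.03 in Pi at 91 dpc, and -0.42 in adult DL and 0.56 in DL at 91 dpc. With this difference as a covariate, 14 members were called, 7 in each direction, and 13 of the 35 calls were kept: BAG3, HSPH1, HSP90AB1, HSP90B1, HSPA13, DNAJB9, HSPA9, HSPE1, DNAJC11, CCT7, DNAJA2, DNAJC6 and DNAJC9. Its part in the results was not tested further, since it differs between these stages in both breeds.

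The cytosolic HSP70 and HSP110 class had 5 of 7 members higher and none lower, with a median of 2.14. HSPA6, the strictly stress-inducible HSP70B' of human cells, had 7.52, 9.42 and 12.08 in adults, against 2.41, 4.02 and 4.75 at 91 dpc. Every adult pool was above every fetal pool, and HSPA6 was 60.5-fold higher (5.92 ± 0.69, adjusted p = 7.52e-07). The adults were far apart among themselves, with 11.83, 8.41 and 10.44 in Pi pools a, b and c and 7.52, 12.08 and 8.07 in DL pools a, b and c. With the GAPDH covariate the change was 5.06 and did not pass (adjusted p = 0.086). Cytosolic HSP70 genes resemble each other in sequence, and whether the HSPA6 probes also bind RNA of its relatives was not tested. HSPA2, best known from testis, had 6.66, 8.45 and 10.29 in adults, against 4.32, 5.37 and 5.80 at 91 dpc. It was 8.76-fold higher (3.13 ± 0.47, adjusted p = 1.42e-05), and did not pass with the covariate (1.65, adjusted p = 0.437).

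HSPH1 had 10.23, 10.44 and 11.78 in adults, against 8.08, 8.50 and 9.01 at 91 dpc, without overlap. It was 4.41-fold higher (2.14 ± 0.21, adjusted p = 6.31e-08) and passed with the covariate (2.41, adjusted p = 0.00774). HSPA12A was higher by 2.49 ± 0.34 (adjusted p = 5.17e-06). HSPA8 had 13.34, 13.69 and 14.69 in adults, against 13.05, 13.14 and 13.40 at 91 dpc, with overlap (0.62 ± 0.17, adjusted p = 0.00428). The other 3 probe sets of HSPA8 were lower in adults, by 1.56, 2.42 and 1.27, and with the mean of all its probe sets the change was -1.16, so its direction rests on the probe set chosen. HSPA4 (0.16) and HSPA14 (-0.19) did not pass, although a further HSPA4 probe set above background on all arrays was higher by 0.997 (adjusted p = 4.21e-06).

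Of the cytosolic HSP90 genes, by brightest probe set, HSP90AB1 was called and HSP90AA1 was not. HSP90AB1 had 12.69, 12.74 and 12.78 in adults, against 13.44, 13.73 and 13.80 at 91 dpc, a gap far larger than the spread of either stage, and fell by 0.97 ± 0.05 (adjusted p = 5.45e-12). HSP90AA1 had 13.13, 13.40 and 13.65 in adults, against 13.04, 13.32 and 13.44 at 91 dpc, and did not pass (0.09, adjusted p = 0.373). The other 4 probe sets of HSP90AA1 were all higher in adults, by 1.52, 1.29, 0.75 and 0.75 (adjusted p between 1.7e-07 and 0.0137), so its call rests on the probe set chosen. In all, 10 further probe sets of 5 members without a call at this step were called themselves (BAG5, DNAJA1, DNAJB6, HSP90AA1 and HSPA4).

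In the ER class the luminal chaperones were lower and a pair of J proteins higher. HSP90B1 had 8.94, 9.15 and 9.63 in adults, against 11.04, 11.39 and 11.95 at 91 dpc, and fell by 2.22 ± 0.13 (adjusted p = 9.44e-11). HSPA13 had 5.16, 6.86 and 7.27 in adults, against 8.53, 8.69 and 8.98 at 91 dpc, and fell by 2.09 ± 0.24 (adjusted p = 6.74e-07). HSPA5 had 10.82, 11.47 and 11.59 in adults, against 11.88, 12.03 and 12.39 at 91 dpc, and fell by 0.72 ± 0.12 (adjusted p = 3.08e-05). None of these overlapped between the stages, and HSPA5 alone of the trio did not pass with the GAPDH covariate (-0.51, adjusted p = 0.327). DNAJB9, which hands misfolded ER proteins to degradation, had 10.12, 10.31 and 10.70 in adults, against 7.21, 7.66 and 8.54 at 91 dpc. It rose by 2.55 ± 0.13 (adjusted p = 8.76e-12) with no overlap. DNAJC3 was higher by 2.10 ± 0.45 (adjusted p = 0.00064), with 2.88 to 6.87 in adults and 2.74 to 3.47 at 91 dpc. Its lowest adult pool lay within the 91 dpc range, and it did not pass with the covariate (2.05, adjusted p = 0.319). DNAJB11 did not pass (-0.08).

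All 6 mitochondrial members were called, 4 higher and 2 lower. The chaperonin pair was lower. HSPD1 had 11.61, 11.76 and 11.96 in adults, against 12.17, 12.31 and 12.61 at 91 dpc (-0.57 ± 0.06, adjusted p = 4.16e-07). HSPE1 had 12.77, 13.19 and 13.31 in adults, against 13.29, 13.48 and 13.59 at 91 dpc (-0.37 ± 0.07, adjusted p = 9.7e-05). Only HSPD1 had stages without overlap. HSPA9 had 11.92, 12.01 and 12.05 in adults, against 11.51, 11.63 and 11.76 at 91 dpc, and was higher by 0.35 ± 0.05 (adjusted p = 2.2e-05). Its J partner DNAJA3 rose by 1.32, DNAJC11, which helps shape the cristae, by 0.76 and DNAJC19 by 0.64.

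For CCT, 3 of 6 members were lower in adults and 1 higher. CCT2 had 10.73, 11.05 and 11.50 in adults, against 11.54, 11.73 and 11.88 at 91 dpc, and fell by 0.65 (adjusted p = 1.31e-06). CCT7 fell by 0.54 (adjusted p = 3.02e-07) and TCP1 by 0.49 (adjusted p = 0.00527), CCT6A was higher by 0.41 (adjusted p = 0.0162), and CCT4 (-0.01) and CCT8 (0.13) did not pass. The ring genes thus did not share a direction on this array.

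BAG3 had 12.70, 12.93 and 13.61 in adults, against 9.98, 10.22 and 10.65 at 91 dpc. The gap exceeded the range of either stage, and BAG3 was 6.63-fold higher (2.73 ± 0.13, adjusted p = 4.56e-12) and 2.96 higher on the log2 scale with the GAPDH covariate (adjusted p = 2.79e-05). BAG1 (0.83) and BAG6 (0.27) were higher too. Of the J proteins, DNAJC6 (2.68), DNAJA2 (1.77), DNAJB2 (1.70), DNAJA4 (0.85), DNAJC24 (0.62) and DNAJC17 (0.56) were higher, and DNAJB14 (-1.40), DNAJC2 (-1.14), DNAJC8 (-0.49) and DNAJC14 (-0.31) lower. DNAJC6 had 3.11 to 6.23 in adults and 2.48 to 2.64 at 91 dpc, and the neuron and glia markers had a mean level of 2.20 to 2.91 in adults, with 6 of 8 at background. DNAJC9, a nuclear J protein that handles histones, had 2.13, 2.15 and 4.23 in adults, against 3.64, 5.38 and 6.25 at 91 dpc. It fell by 2.56 ± 0.31 (adjusted p = 1.22e-06) as a fitted value, since 5 adult pools lay at background. The dividing-cell markers dropped at the same step, as given above. DNAJB1 did not pass (0.28, adjusted p = 0.252). Among the calls of this step those of BAG6, CCT6A, DNAJC14 and DNAJC24 were lost when single arrays were left out (6, 1, 4 and 4 of 12).

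Set side by side, the first and last steps share no arrays. Of the 47 members 10 (21.3%) were lower at the first step and higher at the last, against 7.01% of genes: HSPA8, HSPH1, HSPA12A, HSPA9, DNAJB9, DNAJA2, DNAJC6, DNAJC19, DNAJC24 and CCT6A. Another 10 (21.3%) were lower at both, against 10.6% of genes: HSP90AB1, HSPA5, HSP90B1, HSPA13, HSPD1, HSPE1, CCT2, DNAJB14, DNAJC8 and DNAJC9. Only HSP90AB1 and CCT2 among the members were called lower at all 3 steps. BAG1, BAG3, BAG6, DNAJA4 and DNAJB2 were higher at both outer steps, and BAG3 alone was called higher at all 3. DNAJB1 was called at no step, and DNAJB4 only at the middle step. These patterns hold for the brightest probe set of each gene. With the GAPDH covariate the adult rises of HSPA8, HSPA12A, DNAJC19, DNAJC24, CCT6A, BAG1, BAG6, DNAJA4 and DNAJB2 did not pass. Nor did the adult falls of HSPA5, HSPD1, CCT2, DNAJB14 and DNAJC8. Under the scaling to hybridisation controls the first-step rises of BAG1, DNAJA4 and DNAJB2 and the adult rises of HSPA8, HSPA9, BAG6, CCT6A, DNAJA4, DNAJC19 and DNAJC24 did not pass. With HSPA8 taken as lower in adults, as its 3 other probe sets were, 9 members were lower and then higher and 11 lower at both steps, and 2 further probe sets of HSP90AA1 were lower at the first step (-1.16 and -0.42) and higher at the last (1.52 and 1.29).

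**Figure D3:**
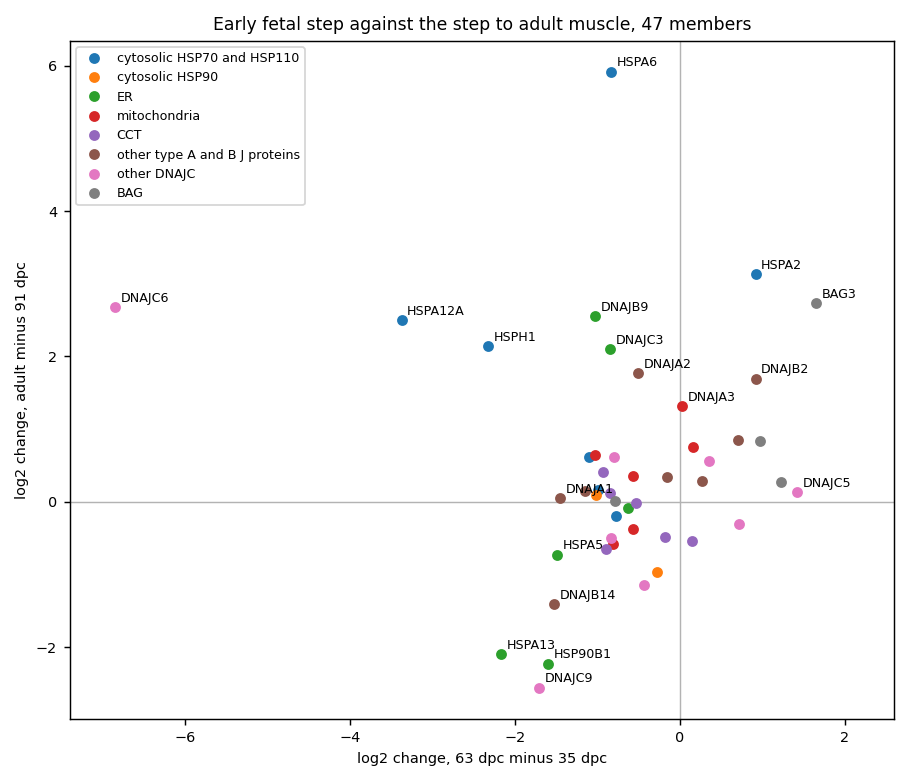
Log2 change of each member in adults against 91 dpc (vertical axis) plotted against its change at 63 against 35 dpc (horizontal axis), with colours for the classes. Members at the lower left, among them HSP90B1 and HSPA13, were lower at both steps, BAG3 lies in the upper right, and DNAJC6 at -6.85 is the leftmost point.

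Members that act together were also placed beside other genes of the folding network, from a list of 44 transcription factors, co-chaperones, prefoldins, disulphide isomerases and proteases, of which 35 were measured. At 63 against 35 dpc 11 were higher and 13 lower, at 91 against 63 dpc 3 and 8, and in adults against 91 dpc 16 and 12. The shares of genes called higher and lower were 30.5% and 24.1%, 12.9% and 13.7%, and 35.4% and 31.5% at these steps. HSF1, the transcription factor that switches on cytosolic heat shock genes, had 9.41, 9.92 and 10.08 in adults, against 7.35, 7.49 and 7.68 at 91 dpc, and rose by 2.37 ± 0.20 (adjusted p = 1.04e-08). FKBP5, a steroid-responsive HSP90 co-chaperone, had 9.11, 9.78 and 10.05 in adults, against 4.18, 4.98 and 5.52 at 91 dpc (4.69 ± 0.24, adjusted p = 8.49e-12). Neither gene overlapped between the stages. FKBP4 (2.32), PTGES3 (1.48), the co-chaperone ligase STUB1 (1.02) and HSF2 (1.36) were higher in adults too, and SUGT1 lower (-1.18). In the cytosolic part of the list 11 of 21 measured genes were higher at this step and 5 lower. ST13 of that part had 11.00, 11.34 and 11.52 in adults, against 11.99, 12.21 and 12.35 at 91 dpc. FKBP5 had fallen at the earlier steps, by 1.71 and 1.55.

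In the ER part of that list 2 of 10 measured genes were higher in adults than at 91 dpc and 6 lower. PDIA6, a disulphide isomerase, had 9.83, 10.07 and 10.22 in adults, against 12.05, 12.16 and 12.24 at 91 dpc, and fell by 2.11 ± 0.06 (adjusted p = 2.68e-15). PDIA4 (-1.67), PDIA3 (-1.09), the lectin chaperone CANX (-1.42), the collagen chaperone SERPINH1 (-1.73) and the transcription factor XBP1 (-0.53) were lower with it. ATF4, a factor of the integrated stress response, had 14.68, 14.90 and 15.03 in adults, against 11.83, 11.97 and 12.25 at 91 dpc (2.85 ± 0.08, adjusted p = 2.09e-15). DDIT3 (CHOP) rose by 3.12 ± 0.33 (adjusted p = 1.74e-07). The other 2 measured ER genes of the list, CALR (0.27, adjusted p = 0.429) and HYOU1 (-0.01, adjusted p = 0.939), did not pass. The 4 measured fibroblast and matrix markers of 5 had a mean level of 8.12 to 8.96 in adults and 9.58 to 10.97 at 91 dpc. DCN, LUM and COL1A2 were lower in adults of both breeds. COL3A1 went the other way, with averages of 5.45 in DL and 4.17 in Pi adults, against 4.44 and 3.29 at 91 dpc. The part of these markers in the values above was not tested. UNC45B, the myosin chaperone, rose at the first step (1.06 ± 0.08, adjusted p = 4.95e-09), as did the mitochondrial protease LONP1 (1.48 ± 0.08, adjusted p = 1.61e-11).

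**Figure D4:**
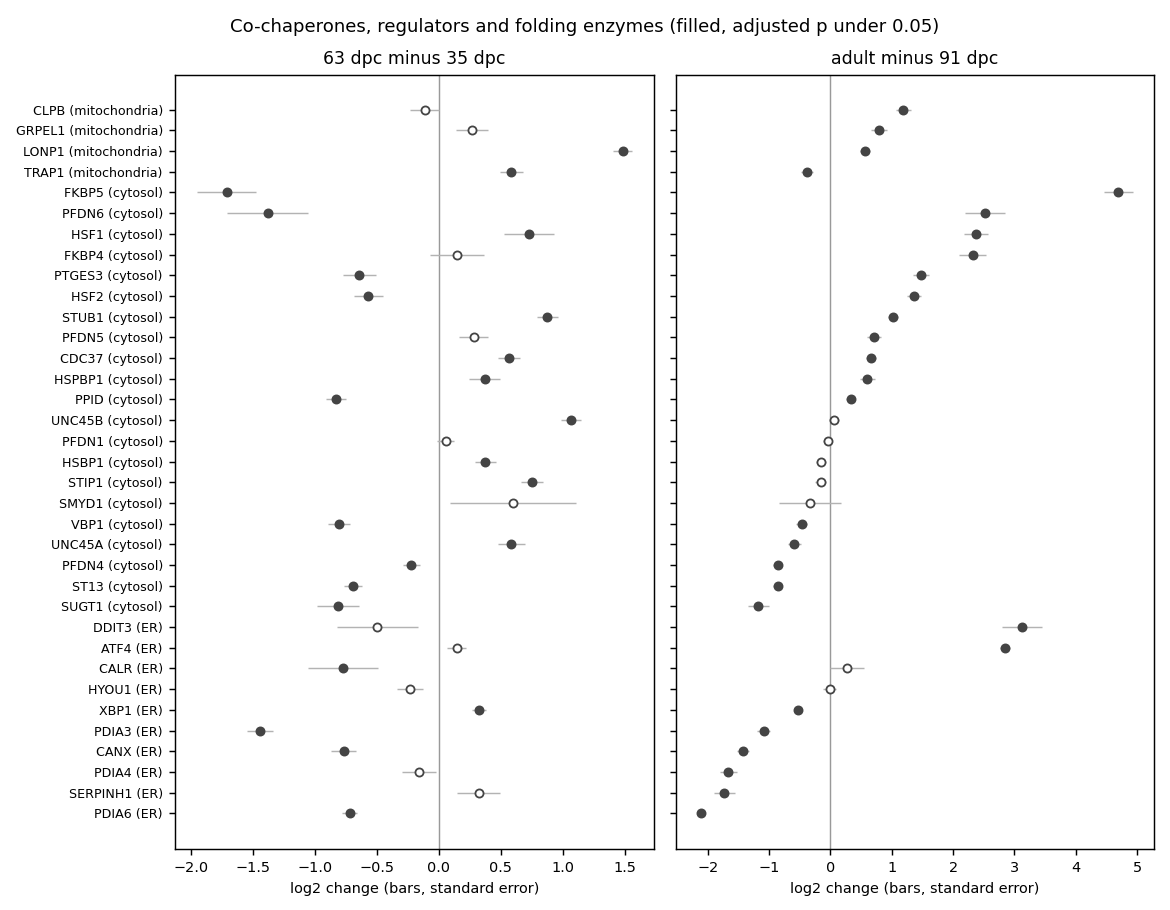
Log2 change of the 35 other measured genes of the folding network at 63 against 35 dpc (left) and in adults against 91 dpc (right), by compartment, with standard errors and filled points where limma's adjusted p was below 0.05. In adults FKBP5 at 4.69 is the highest and PDIA6 at -2.11 the lowest.

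Breed differences were few. In Pi against DL at 35 dpc 1 member was higher and 2 lower (all probe sets: 1.61% higher, 2.41% lower), and at 63 dpc 0 were higher and 1 lower (0.671% and 0.7%). At 91 dpc 0 were higher and 2 lower (1.35% and 1.38%), and in adults 1 higher and 2 lower (2.89% and 3.44%). Averaged over the 4 stages 1 was higher and 4 lower (3.05% and 3.24%). Of 6765 genes by their brightest probe set 131 were higher and 242 lower in Pi at 35 dpc, and 63 and 67 at 63 dpc. At 91 dpc 91 and 154 of these genes were, in adults 206 and 265, and over the stages 194 and 335. With so few calls, the members give no breed pattern beyond single genes. Under the scaling to hybridisation controls the counts changed with the median of all probe sets: at 35 dpc 19 higher and 0 lower at a shift of 0.49, at 63 dpc 0 and 0 at -0.11, at 91 dpc 0 and 17 at -0.42, in adults 0 and 3 at -0.24, and over stages 0 and 3 at -0.07. With limma's unadjusted p below 0.05, 4 members were higher and 11 lower in Pi at 63 dpc, against 8.85% and 7.97% of genes by their brightest probe set. At 91 dpc 1 was higher and 8 lower, against 6.49% and 10.9% of genes.

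CCT7 was the clearest at 35 dpc, with 11.91, 11.83 and 11.83 in Pi pools a, b and c, against 12.57, 12.48 and 12.54 in DL pools. The breeds lay apart by several times the spread of either, a difference of -0.67 ± 0.08 (Pi minus DL, 3 pools each, adjusted p = 0.000165). The call held with every single array left out, but not under the scaling to hybridisation controls (-0.18, adjusted p = 0.392). DNAJC11 had 7.42, 7.01 and 6.97 in Pi, against 7.73, 7.79 and 7.63 in DL (-0.58 ± 0.16, adjusted p = 0.0497), lost without any of 5 of the 6 arrays: pools b and c of Pi and each pool of DL. HSPD1 had 13.38, 13.30 and 13.49 in Pi, against 13.09, 13.02 and 13.04 in DL (0.34 ± 0.09, adjusted p = 0.0413), and was lost without any one of the 6. A panel of 12 well-studied members (HSPA8, HSPH1, HSP90AA1, HSP90AB1, HSPA5, HSP90B1, HSPA9, HSPD1, HSPE1, TCP1, DNAJB1 and BAG3) was followed in every comparison. The 11 of them not called at 35 dpc had differences between -0.32 (HSP90B1) and 0.68 (DNAJB1).

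DNAJB1 carried a breed difference at the middle stages. At 63 dpc it had 7.66, 7.55 and 7.49 in Pi pools a, b and c, against 8.80, 8.58 and 9.15 in DL pools (-1.28 ± 0.29, adjusted p = 0.0388). At 91 dpc it had 7.54, 7.46 and 7.48 in Pi, against 9.40, 8.95 and 8.33 in DL (-1.40 ± 0.29, adjusted p = 0.0145). In both cases all Pi pools were below all DL pools, and Pi was tighter than DL. No call was made at the other stages, where the breeds overlapped. At 35 dpc the values were 7.69, 8.62 and 8.52 in Pi and 7.75, 7.75 and 7.30 in DL, and in adults 8.41, 8.66 and 8.51 in Pi and 7.75, 8.66 and 8.89 in DL. Leaving out single arrays ended the 63 dpc call in 5 of 6 cases (all but DL pool b) and the 91 dpc call in 3 (Pi pool b, DL pools a and b). The average over stages did not pass (-0.48, adjusted p = 0.0619), nor did the 91 dpc difference with the GAPDH covariate (-1.08, adjusted p = 0.165) or the 63 dpc difference with the scaling (-1.39, adjusted p = 0.0675). Markers of some other tissues split by breed at 63 dpc, at 91 dpc or at both. The 5 measured liver markers of 5 had a mean level of 4.07 to 4.34 in Pi pools and 8.49 to 10.42 in DL pools at 63 dpc. It was 4.08 to 4.37 in Pi and 4.57 to 6.37 in DL at 91 dpc. AHSG (2.29 in Pi, 5.99 in DL) and AFP (2.21 and 3.35) made that later gap. ALB (2.81 and 2.92), TTR (2.24 and 2.20) and APOA1 (11.82 and 11.67) differed little at 91 dpc. The 4 red blood cell markers had 5.61 to 5.93 in Pi and 6.91 to 7.38 in DL at 63 dpc. Among them HBB (8.91 in Pi, 9.15 in DL) and HBE1 (2.24 and 2.19) differed little there. At 91 dpc they overlapped (6.59 to 6.72 in Pi, 6.43 to 6.84 in DL). The 5 endothelial markers had 7.99 to 8.10 in Pi and 8.79 to 9.16 in DL at 91 dpc, and overlapped at 63 dpc (6.96 to 7.18 and 7.09 to 7.58). The mean level of the 3 measured adipocyte markers of 4 was higher in Pi at 91 dpc (6.28 to 6.88 in Pi, 5.08 to 6.14 in DL). This came from ADIPOQ (6.15 in Pi, 3.84 in DL), while FABP4 (11.20 and 11.26) and LEP (2.20 and 2.13) differed little. The part of all these markers in the breed values at these stages was not tested.

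CCT6A had 9.72, 9.77 and 9.37 in Pi at 91 dpc, against 10.59, 10.08 and 10.66 in DL (-0.82 ± 0.19, adjusted p = 0.0276), lost without any array but DL pool b. Its 2 other probe sets were not called there, and the mean of all its probe sets did not pass. In adults DNAJC5 had 7.40, 7.57 and 6.85 in Pi, against 8.39, 8.24 and 8.26 in DL, with no overlap. It was lower in Pi by 1.02 ± 0.19 (adjusted p = 0.00272), and called with every array left out in turn. It did not pass with array weights (adjusted p = 0.225) or in a fit of the adult arrays alone (adjusted p = 0.241). HSPE1 had 13.29, 13.31 and 13.29 in adult Pi, against 13.09, 12.77 and 12.84 in adult DL (0.39 ± 0.09, adjusted p = 0.0175), not called without DL pool b (adjusted p = 0.0705). DNAJC19 had 9.43, 9.09 and 8.10 in adult Pi, against 9.89, 9.80 and 9.47 in adult DL (-0.85 ± 0.24, adjusted p = 0.0438), lost without Pi pool c or DL pool a or b.

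Over the 4 stages together HSPE1 was higher in Pi (0.21 ± 0.05, adjusted p = 0.0142) and DNAJC9 lower (-0.96 ± 0.22, adjusted p = 0.015), both in all 24 fits with an array left out. DNAJC9 had 4.90, 3.81 and 5.15 in Pi at 63 dpc, against 6.18, 5.44 and 5.91 in DL, and 3.64, 4.27 and 5.01 in Pi at 91 dpc, against 5.79, 6.25 and 5.75 in DL. CCT6A (-0.35, adjusted p = 0.0373), CCT7 (-0.15, adjusted p = 0.037) and DNAJB9 (-0.34, adjusted p = 0.0367) were lower in Pi and lost their calls without one or another of 16, 14 and 12 arrays of 24. With the GAPDH covariate HSPE1 passed, and DNAJC9 (-0.91, adjusted p = 0.0904), CCT6A, CCT7 and DNAJB9 did not. Under the scaling to hybridisation controls HSPE1 (0.14, adjusted p = 0.335) and CCT7 did not pass. With the mean of all probe sets of a gene CCT6A did not pass.

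**Figure D5:**
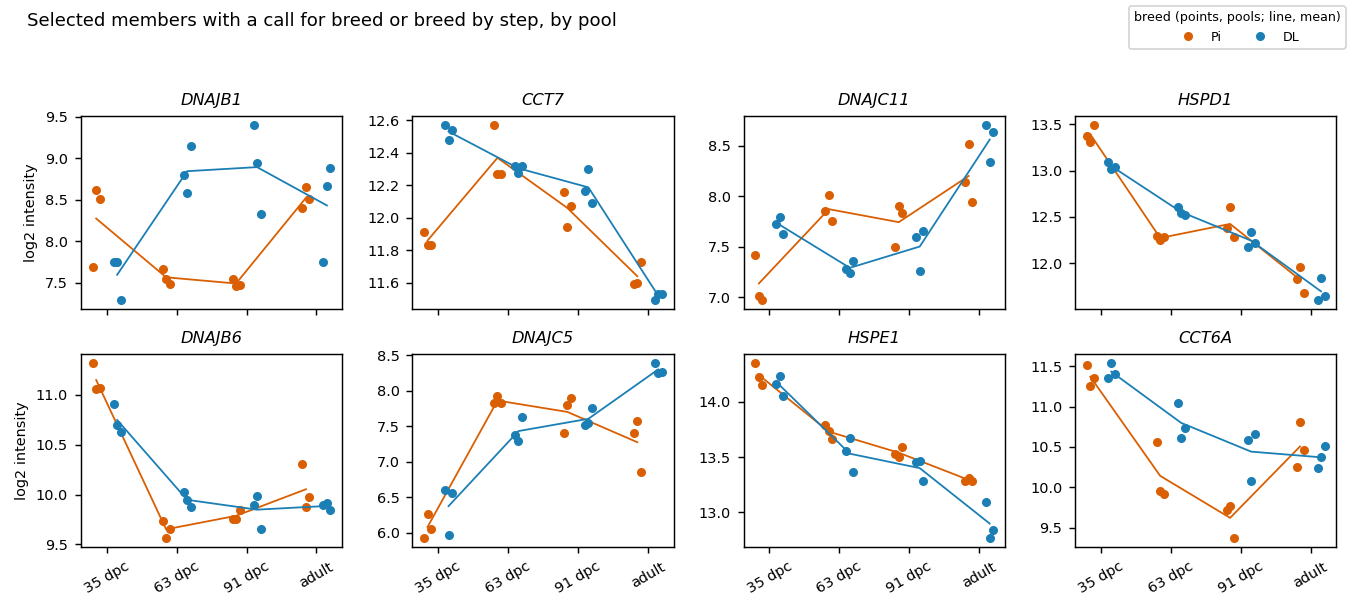
Log2 intensity in Pi (left, orange) and DL (right, blue) pools of 8 members with a call for breed or for breed by step, at 35, 63 and 91 dpc and in adults; lines join group means. DNAJB1 lies apart by breed at 63 and 91 dpc only, and DNAJC5 crosses over between 91 dpc and adults.

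Whether the breeds changed differently between stages was tested as an interaction, the step in Pi minus the step in DL. For 35 to 63 dpc 5 of 47 members were called, against 3.3% of all probe sets. For 63 to 91 dpc 0 were called, against 0.0917% (3 higher and 1 lower by limma's unadjusted p below 0.05, against 4.08% and 7.85% of genes). For 91 dpc to adult 1 was called, against 2.66%. Of 6765 genes by their brightest probe set 230 were called higher and 121 lower for 35 to 63 dpc. For 63 to 91 dpc 2 and 4 were, and for 91 dpc to adult 115 and 90. Under the scaling to hybridisation controls the counts of members were 18 (all lower), 0 and 0. DNAJB1 had an interaction of -1.95 ± 0.41 (adjusted p = 0.0143) at the first step, with a lower mean in Pi at 63 dpc than in Pi at 35 dpc and a higher mean in DL at 63 dpc than in DL at 35 dpc. CCT7 (0.74 ± 0.12, adjusted p = 0.00217) and DNAJC11 (1.16 ± 0.23, adjusted p = 0.00826) had higher means in Pi at 63 dpc than in Pi at 35 dpc, and lower means in DL at 63 dpc than in DL at 35 dpc. DNAJC11 had 7.85, 8.01 and 7.76 in Pi at 63 dpc, against 7.28, 7.24 and 7.35 in DL. Its pools thus changed places by breed between these stages, but the 63 dpc difference was not called. The DNAJC11 interaction did not pass under the scaling to hybridisation controls or with the mean of all its probe sets. That of CCT7 did not pass under the scaling.

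HSPD1 had 12.29, 12.25 and 12.28 in Pi at 63 dpc, against 12.61, 12.54 and 12.52 in DL, and its decrease from 35 dpc was larger in Pi (-0.62 ± 0.13, adjusted p = 0.0123). For DNAJB6, a J protein in which human mutations cause a muscular dystrophy, the decrease of the brightest probe set was also larger in Pi (-0.70 ± 0.16, adjusted p = 0.0237). That call was lost without any of 5 of 12 arrays. It was also lost with the mean of all DNAJB6 probe sets, some of which rose at this step, as given above. DNAJC5 had 7.41, 7.80 and 7.89 in Pi at 91 dpc, against 7.51, 7.54 and 7.75 in DL, where the breeds overlapped. Its step into adulthood differed by -1.12 ± 0.26 (adjusted p = 0.03), called in 6 of 12 fits with an array left out. The other panel members were not called, with interactions from -1.27 (HSPH1) to 0.25 (BAG3) at the first step and from -0.37 (HSPA5) to 1.49 (DNAJB1) at the last.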

How the data were processed

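RNA of 24 muscle pools was measured on Affymetrix porcine arrays. The table deposited by the authors holds log2 intensities of probe sets. The submitters' processing notes name GCOS 1.1.1; how probes were summarised and background removed is not stated there. Base 2 is a reading of the value range (1.60 to 16.10). All 24 columns hold the same sorted values, so the arrays had been quantile-normalised and each change is relative to other probe sets. Precision is limited by the array number.

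Of 24123 probe sets 124 controls were left out. Of the 23999 tested, 10069 had 1 symbol, 198 several and 13732 none. The background ceiling of an array was the highest of 23 control sets without target (2.31 to 2.69).

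A mean per group was fitted to all arrays with limma 3.58.1 in R 4.3.3 (16 residual and 1.31 prior degrees of freedom). Tests were two-sided, with Benjamini-Hochberg adjustment over the 23999 probe sets in each of 11 comparisons at a threshold of 0.05. The fit's standard errors follow each ± sign. Named were, of the members called, the 3 largest rises and falls of each stage step and of the breed average, the 2 largest for other comparisons, and a panel of 12. Other members are given by class. Members, lists and tests were chosen with earlier results of these data known. RefSeq's pig annotation held 46 of the 47 gene IDs under the same symbol. Alternatives were array weights, a variance trend, a dim-probe filter (above background on at least 3 arrays), scaling to 9 hybridisation control sets, a replicate block, the GAPDH covariate, the mean of all probe sets, fits of only the groups compared, and leaving out each array. The fit was tested on simulated data. Plots used Python 3.11.15 and matplotlib 3.10.9.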

Additional observations from a re-analysis of the deposited data

Results flagged for a closer look

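The breeds differed in their step from 35 to 63 dpc for 5 members and in their step from 91 dpc to adult for 1, each by limma's interaction test (the step in Pi minus the step in DL). From 35 to 63 dpc the interaction was 0.74 for CCT7 (adjusted p = 0.00217), -1.95 for DNAJB1 (adjusted p = 0.0143), -0.70 for DNAJB6 (adjusted p = 0.0237), 1.16 for DNAJC11 (adjusted p = 0.00826) and -0.62 for HSPD1 (adjusted p = 0.0123). From 91 dpc to adult it was -1.12 for DNAJC5 (adjusted p = 0.03). With the mean of all probe sets of a gene DNAJB6 and DNAJC11 did not pass. Under the scaling to hybridisation controls CCT7, DNAJC11 and DNAJC5 did not. Each group has 3 pools, too few for a single pool to be tested as standing apart.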

How the results depend on the processing

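The stage counts held their size in most settings, and those of breed rarely did. With array weights the members called were 7, 8, 5 and 0 for Pi against DL at 35, 63 and 91 dpc and in adults, 12 for the 35 to 63 dpc interaction and 0 for the adult one. With the scaling to hybridisation controls they were 19, 0 and 17 for the breeds at 35, 63 and 91 dpc, 3 over stages, and 18 and 0 for these interactions. With the GAPDH covariate they were 14 in adults against 91 dpc, 1 for the breeds at 91 dpc, 1 over stages and 0 for the adult interaction. Without dim probe sets 1 was left at 35 dpc. With the mean of all probe sets there were 3 for the breeds at 63 dpc and 5 in adults. In fits of only the groups compared there were 0 for the breeds at 63 dpc, 91 dpc and in adults, 10 for the 35 to 63 dpc interaction and 0 for the adult one. The cause was not tested. Pools of the same letter did not deviate together (84 correlations, -0.08 to 0.09), so no pairing by letter was seen in these values. With 3 pools a group this cannot show that the letters pair no samples. With the replicate block 36 members were called at 63 against 35 dpc, 35 in adults against 91 dpc and 0 for the breeds at 63 dpc. Leaving out 1 array gave 34 to 38 calls at 63 against 35 dpc, 10 to 14 at 91 against 63 dpc and 33 to 36 in adults against 91 dpc. For the breeds it gave 1 to 2 at 35 dpc, 0 to 1 at 63 dpc, 0 to 3 at 91 dpc, 2 to 5 in adults and 2 to 6 over stages, and for the interactions 4 to 5, 0 to 0 and 0 to 3. Of the 36 calls at 63 against 35 dpc 32 to 36 were kept in each setting above, and of the 35 in adults 13 with the GAPDH covariate and 27 to 35 otherwise. Scaling reversed HSPA9 in Pi against DL at 35 dpc (0.46) and the 35 to 63 dpc interaction of HSP90AB1 (-0.57). The mean of all probe sets reversed HSPA8 in adults (-1.16), HSP90AA1 in Pi against DL over stages (-0.24) and the 35 to 63 dpc interaction of HSP90B1 (-0.87). Of these reversed results only that of HSPA8 in adults was called in the main fit. For the others the sign of a value without a call changed. Signal near background limits HSPA12A, DNAJC9 and the lowest values of HSPA6, HSPA2, DNAJC3 and DNAJC6.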

Other observations

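The highest adult value of a member fell unevenly over the 6 adult pools. Pi pools a, b and c held it for 11, 7 and 3 members, and DL pools a, b and c for 5, 14 and 7. In DL pool b these included HSPA6, HSPA2, HSPA4, HSPH1, HSP90AA1, DNAJB4, DNAJA4 and BAG3, and in Pi pool a HSPA8, HSPA14, HSPA9, DNAJA1 and DNAJC3. The adult change of HSPA6 ran between 5.20 and 6.37 over the 12 fits that left out an adult or 91 dpc array, and that of BAG3 between 2.59 and 2.82.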
